A study of Mus musculus with 32 samples.

Results

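Aminoacyl-tRNA synthetases were examined in degradome libraries of mice deficient in Ftsj1 and of wild-type mice. The genes were chosen by symbol, as a capital letter followed by "ars" with or without a final 1, 2 or 3, together with Eprs, Farsa, Farsb and Tarsl2. This gave 38 genes among the 55289 named genes of each deposited table, 21 for cytosolic enzymes and 17 for mitochondrial ones. A degradome library samples 5' ends of uncapped RNA with a poly(A) tail, so each value counts ends left by decapping or cleavage and not the level of the intact transcript. Deficient mice carry the label Ftsj1_DF and controls the label WT. All were untreated males of 4 months, brothers of both genotypes among them, and the labels used here do not describe the allele. Brain, heart, kidney and liver came from the same 6 mice (3 Ftsj1_DF and 3 WT libraries per organ) and spleen from 8 others (4 and 4), which gave 32 libraries from 14 mice. The authors deposited 1 comparison table per organ, with the mean normalized count over all its libraries and a log2 fold change, and these tables hold no values per library.

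Each synthetase joins an amino acid to its tRNAs, the step that gives the genetic code its meaning. Cytosolic and mitochondrial translation use largely separate sets of these enzymes, all encoded in the nucleus, and the glycine and lysine enzymes (Gars, Kars) serve both compartments from a single gene. In the cytosol, 8 of them (Dars, Eprs, Iars, Kars, Lars, Mars1, Qars and Rars) assemble into the multisynthetase complex around the scaffold proteins Aimp1, Aimp2 and Eef1e1, while the other 13 act outside it. Ftsj1 encodes a 2'-O-methyltransferase of the tRNA anticodon loop, with tRNAs for phenylalanine, tryptophan and leucine among its known substrates. Farsa and Farsb (the 2 subunits of the cytosolic phenylalanine enzyme), Wars and Lars charge these tRNAs.

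The markers of 2 tables went against their names. Of the sum of mean counts in the brain-named table, 12 hepatocyte genes made up 27.1%, against 0.456% in the liver-named table. The 10 neuron genes had a median mean count of 18311 in the liver-named table against 139 in the other, so these tables are called brain-named and liver-named throughout. Cardiomyocyte, proximal tubule, and B and plasma cell genes were highest in the heart, kidney and spleen tables. Pancreatic acinar genes made up 15.6% of the spleen table. Of the marker genes, Cela2a, Actc1, Ms4a1, Mzb1 and Alas2 are listed at 0 in every table, Actc1 in the heart table included, so a listed 0 is no evidence that a transcript was absent. In the authors' deposited tables Ftsj1 itself had negative log2 fold changes, from -1.56 ± 0.61 (SE) in kidney to -3.38 ± 0.59 in the liver-named table, and it fell past the authors' threshold in the brain-named, liver-named and spleen tables. Positive values are therefore read as higher in deficient mice. Where 5 values are given in a row, the brain-named table comes first, then heart, kidney, the liver-named table and last spleen.

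All 38 genes had an adjusted p in every table. Synthetase tags made up from 0.161% (brain-named) to 0.312% (liver-named) of the sum of means. The tables were normalized separately and give no spread of a level over libraries, so levels are given as mean normalized counts per 1000000 of the table sum (CPM) and are described without a test. The same gene differed between its highest and lowest table by a median of 4.05-fold over the 38 genes, from 1.96-fold for Hars2 to 16.98-fold for Tars. Cytosolic synthetases were most often highest in the liver-named table with its neuronal transcripts (11 of 21), and mitochondrial ones in the kidney (7 of 17) and heart (5 of 17) tables. The summed level of the cytosolic genes was 2.79, 1.34, 1.70, 4.09 and 3.62 times that of the mitochondrial genes in the 5 tables, highest in the liver-named one. A few abundant genes weigh on such shares. Genes above 1% of the sum held 31.9% of the brain-named table (3 genes), 21.1% of heart (10 genes) and 28.6% of spleen (10 genes). Kidney and the liver-named table, where the counts above were high, had 0 such genes. The CPM of all other genes is thus lowered in the brain-named, heart and spleen tables relative to kidney and liver-named. With genes above 1% taken out of the sum, a choice made after the data were seen, 33 of 38 genes kept their highest table. The count of cytosolic genes highest in the liver-named table was then 9 of 21. Of the 17 mitochondrial genes, 6 were then highest in kidney and 5 in heart. How often genes in general were highest in each table was not counted, so whether synthetases differ from them was not tested.

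Among the cytosolic enzymes, Tars, the threonine enzyme, stood at 32.9 CPM in the brain-named table, 10.4 in spleen, 5.64 in the liver-named table, 5.17 in kidney and 1.94 in heart. Aars, the alanine enzyme, reached 424 CPM in the brain-named and 343 in the liver-named table, against 180.0 in kidney, 71.0 in spleen and 57.3 in heart. Yars, the tyrosine enzyme, was at 206 CPM in the liver-named table, and its other 4 values lay between 34.3 and 50.97. Wars, the tryptophan enzyme, was likewise highest there, at 78.0 CPM against 10.5 to 21.3 elsewhere. Vars, the valine enzyme, was highest in the spleen table at 40.3 CPM and lowest in heart at 5.03. Eprs and Rars were among the flattest, with spans of 2.09-fold and 2.65-fold. Of the mitochondrial enzymes, Fars2 for phenylalanine was at 297 CPM in heart and 188 in kidney, against 57.0 to 72.0 in the other 3 tables. Tars2 was also highest in heart, at 217 CPM against 66.8 in the brain-named table. Rars2, the mitochondrial arginine enzyme, was at 22.3 CPM in kidney and between 2.42 and 7.29 elsewhere. Sars2, the mitochondrial serine enzyme, was at 10.8 CPM in the brain-named table and 0.75 in heart, and Mars2, the mitochondrial methionine enzyme, was at 1.39 in the brain-named table, its lowest, and at 13.4 in the liver-named one, its highest.

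**Figure D1:**
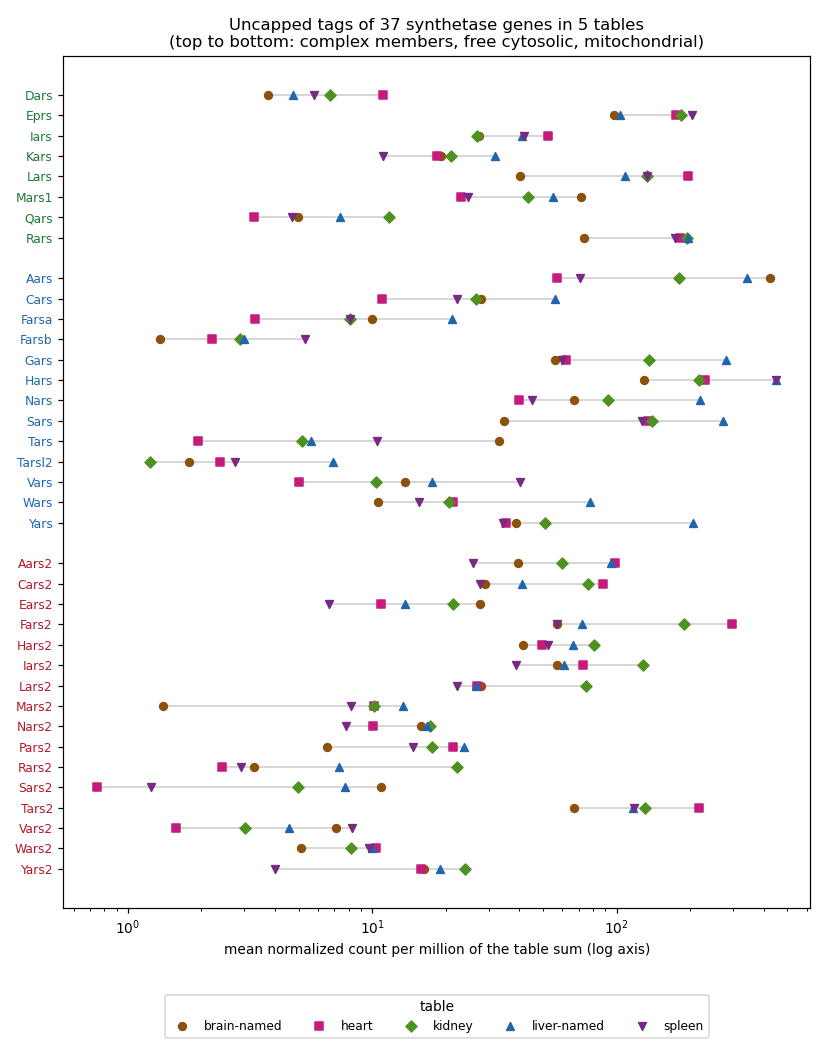
Mean normalized count per 1000000 of the table sum (log axis) for 37 synthetase genes, with 1 symbol per deposited table and a grey line from the lowest to the highest. Gene names are green for complex members, blue for free cytosolic and red for mitochondrial enzymes, and the widest spans belong to Tars (16.98-fold) and Sars2 (14.4-fold).

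RefSeq promoter windows (GRCm38.p6, 250 bases before to 50 after a start, while the counts were made on GRCm39) were found for 28 of the 38 genes, 14 cytosolic and 14 mitochondrial. The core of the amino acid response element, TGATGNAA, through which the transcription factor ATF4 acts on many genes of amino acid supply, was searched on both strands. It was present in 5 of the 14 cytosolic windows (35.7%) and 0 of the 14 mitochondrial ones, against 4.51% of 27025 genes with a window. The ETS core CCGGAAG, which is common in promoters of housekeeping genes, was in 5 cytosolic and 4 mitochondrial windows (32.1% of the 28), against 9.93% of all genes, and no match of either motif overlapped one of the other. These are counts of letters, not binding sites. Stretches that hold TGATGNAA are shown for these 5 genes because no mitochondrial window held a match, while 9 of the 14 cytosolic windows held none either. Each is read so that the match, in capitals, runs 5' to 3'. Aars has a match 9 bases after the start (chr8:111033840-111033869, minus strand). Gars has a match 30 bases before the start (chr6:55037960-55037989, minus strand) and Tars 15 bases before it (chr15:11399655-11399684, plus strand). Those of Iars (chr13:49682126-49682155, minus strand) and Yars (chr4:129189895-129189924, plus strand) lie 7 and 3 bases after the start. Each distance is to the base of the match that comes first along the gene, whichever strand the match is on.
Aars: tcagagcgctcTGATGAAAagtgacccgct
Gars: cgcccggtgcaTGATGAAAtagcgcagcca
Tars: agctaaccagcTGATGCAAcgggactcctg
Iars: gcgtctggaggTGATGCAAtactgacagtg
Yars: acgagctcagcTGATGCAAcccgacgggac

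The comparison of deficient with wild-type mice asks whether loss of a tRNA methyltransferase goes with a change in uncapped RNA of the enzymes that use tRNA. No synthetase gene passed a false discovery rate of 5% in any of the 5 tables (0 of 190 values by the authors' DESeq2 test), where 0.414%, 1.19%, 2.07%, 0.203% and 0.217% of all tested genes passed. With a limit of 10%, 2 of 38 passed in kidney (Ears2 and Farsb, background 3.09%) and 0 in the other 4 tables (background 0.88%, 1.92%, 0.563% and 0.338%). At an unadjusted p under 0.05, 13 of the 190 values passed, in 11 genes, all higher in deficient mice. They were 2 of 38 genes in the brain-named table (background 8.03% of tested genes higher at this p), 6 in heart (4.76%), 4 in kidney (6.24%), 0 in the liver-named table (4.48%) and 1 in spleen (2.62%). None was lower at this p, where the background was 2.82%, 5.87%, 5.67%, 5.88% and 3.35% in the same order of tables. The share of synthetases higher at this p was above the background in heart (15.8%) and kidney (10.5%), near it in spleen (2.63%) and below it in the brain-named (5.26%) and liver-named (0%) tables.

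The error set what could be seen. The standard error of a synthetase log2 fold change had a median of 0.37, 0.32, 0.41, 0.42 and 0.56. To reach the weakest statistic that passed in its table, a synthetase of median error would have needed a log2 change of 1.38, 1.09, 1.35, 1.65 and 2.18. The 95% interval lay wholly within a 2-fold change in either direction for 19, 18, 15, 11 and 3 of the 38 genes. For these genes a change larger than 2-fold lay outside the interval, and for the others it was not resolved. The tables do not state how deeply each library was sequenced.

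**Figure D2:**
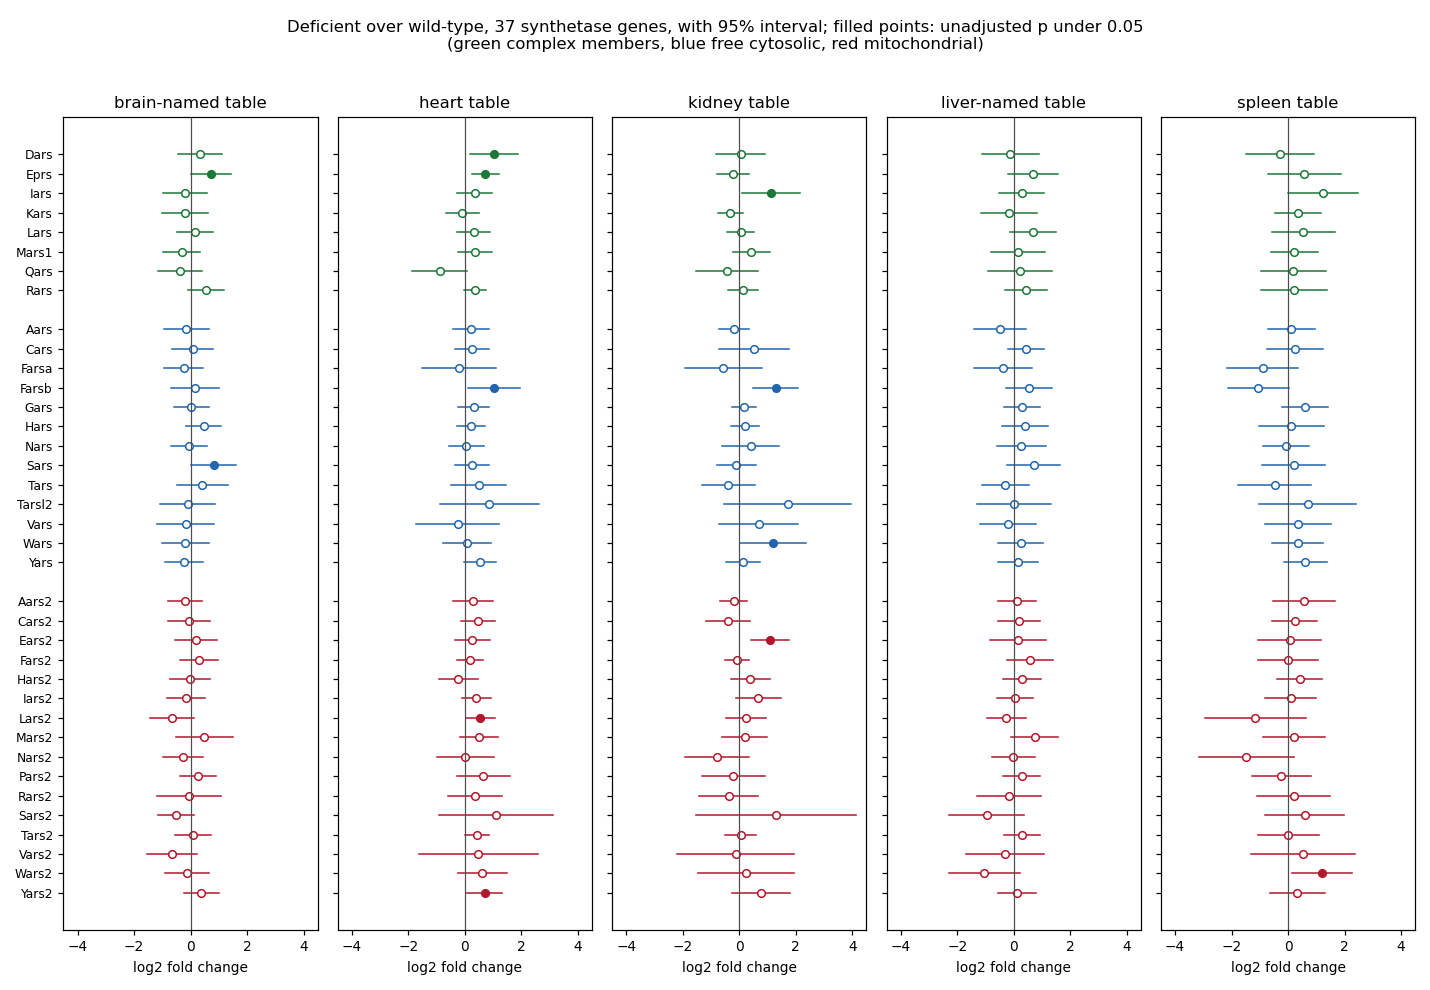
Log2 fold change of deficient over wild-type mice with its 95% interval (1 panel per deposited table, 1 row per gene, filled points at an unadjusted p under 0.05). The 37 genes shown have 2, 5, 4, 0 and 1 filled points from left to right, which all lie right of 0, and intervals are widest for Sars2, Vars2 and Tarsl2 in heart and kidney.

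In the multisynthetase complex, Eprs, which joins both glutamate and proline to their tRNAs, had the smallest p of the synthetases in heart. The authors' deposited tables give it 0.72 ± 0.25 in heart (adjusted p = 0.138) and 0.73 ± 0.36 in the brain-named table (adjusted p = 0.431), against -0.22 ± 0.30 in kidney, 0.67 ± 0.45 in the liver-named table and 0.58 ± 0.67 in spleen. In heart this is a 1.65-fold difference with a 95% interval of 0.24 to 1.21 on the log2 scale, at a mean count of 8840.0. Dars, the aspartate enzyme, was at 1.04 ± 0.43 in the authors' deposited heart table (unadjusted p = 0.0163, adjusted p = 0.292), and within 0.34 of 0 in the other 4. Iars, for isoleucine, was at 1.12 ± 0.53 in kidney and 1.23 ± 0.64 in spleen in the authors' deposited tables, with adjusted p = 0.354 and 0.846. Qars, for glutamine, had the lowest value of all synthetases in heart, -0.90 ± 0.50 in the authors' deposited table, where 6 of the 8 complex members were positive. Rars, for arginine, was positive in all 5 tables, from 0.14 ± 0.27 in kidney to 0.56 ± 0.32 in the brain-named table of the authors. Mars1, for methionine, ranged from -0.31 to 0.43 and Kars from -0.32 to 0.35 over the 5 tables, with no p under 0.05.

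Of the free cytosolic enzymes, 4 values had an unadjusted p under 0.05. Sars, the serine enzyme, had the highest synthetase value of the brain-named table, 0.82 ± 0.40 in the authors' deposited table (adjusted p = 0.430), and lay between -0.10 and 0.70 elsewhere. Farsb was at 1.28 ± 0.41 in kidney and 1.03 ± 0.47 in heart, and Wars at 1.19 ± 0.60 in kidney, in the authors' deposited tables. Tarsl2, a second cytosolic threonine enzyme, had the highest value of any synthetase, 1.72 ± 1.14 in the authors' deposited kidney table, but at a mean count of 59.7 its interval ran from -0.53 to 3.96. Hars, the histidine enzyme, was positive in all 5 tables, between 0.12 and 0.47, as were Cars, for cysteine, between 0.07 and 0.51, and Gars, between 0.02 and 0.61. Aars ranged from -0.50 in the liver-named table to 0.22 in heart, and Nars, for asparagine, from -0.08 in spleen to 0.41 in kidney. Tars ranged from -0.46 in spleen to 0.48 in heart, Vars from -0.26 in heart to 0.69 in kidney, and Yars from -0.23 in the brain-named table to 0.61 in spleen.

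Among mitochondrial enzymes, Ears2, which charges mitochondrial tRNA with glutamate, had the smallest adjusted p of all 190 values. It was at 1.08 ± 0.34 in the authors' deposited kidney table (unadjusted p = 0.00144, adjusted p = 0.0613), a 2.12-fold difference that did not pass. Its other values in the authors' deposited tables were 0.19 ± 0.38, 0.26 ± 0.32, 0.14 ± 0.50 and 0.05 ± 0.57 in the other 4 in their order. In heart, Yars2 at 0.71 ± 0.32 and Lars2 at 0.54 ± 0.26, for tyrosine and leucine, had unadjusted p under 0.05 in the authors' deposited table, with adjusted p = 0.359 and 0.413. Lars2 was at -0.67 ± 0.40 in the authors' deposited brain-named table, the lowest synthetase value there, and at -1.16 ± 0.92 in spleen. Wars2, for tryptophan, was at 1.19 ± 0.54 in spleen (adjusted p = 0.712) and at -1.03 ± 0.64 in the liver-named table of the authors, where it was the lowest synthetase. Mars2 had the highest synthetase value of the authors' deposited liver-named table, 0.74 ± 0.43. Nars2 had the lowest synthetase value in kidney, -0.79 ± 0.58, and in spleen, -1.48 ± 0.86, and was negative in 4 of the 5 authors' deposited tables. The highest synthetase value in heart belonged to Sars2, 1.10 ± 1.04, at a mean count of 37.8 in the authors' deposited table.

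No p under 0.05 was found for Tars2, Fars2, Hars2, Iars2, Aars2, Cars2, Pars2, Rars2 or Vars2. Tars2 was positive in all 5 tables, between 0.01 and 0.43. Fars2 lay between -0.07 and 0.57, Hars2, for histidine, between -0.23 and 0.41, and Iars2, for isoleucine, between -0.17 and 0.66. Aars2 ranged from -0.21 to 0.56, Cars2 from -0.41 to 0.47, Pars2, for proline, from -0.24 to 0.65, Rars2 from -0.38 to 0.36 and Vars2 from -0.66 to 0.53. Over the whole family, 9 genes were positive in all 5 tables and 1, Farsa, was negative in all 5. In 4 organs the tables share mice, so these are not 5 independent comparisons. The share of all tested genes that keep their sign in all 5 tables was not counted.

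Among the enzymes for tRNAs that Ftsj1 modifies, the phenylalanine enzyme works as a tetramer of both its subunits. Their values had opposite signs in 4 of the 5 tables and were both negative in spleen. Farsa was at -0.25 ± 0.35, -0.20 ± 0.67, -0.56 ± 0.70, -0.37 ± 0.52 and -0.90 ± 0.64 in the authors' deposited tables. Farsb was at 0.15 ± 0.44, 1.03 ± 0.47, 1.28 ± 0.41 (adjusted p = 0.0667), 0.54 ± 0.41 and -1.06 ± 0.55 in the authors' deposited tables. Its mean counts were low, from 99.1 in the brain-named to 259 in the spleen table. Farsa and Farsb were not tested against each other. Lars was positive throughout, between 0.05 ± 0.24 in kidney and 0.68 ± 0.42 in the liver-named table of the authors, and its kidney interval of -0.43 to 0.53 did not reach a 2-fold change. Wars was at 1.19 ± 0.60 in kidney (adjusted p = 0.411) and between -0.19 and 0.35 in the other 4 tables.

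**Figure D3:**
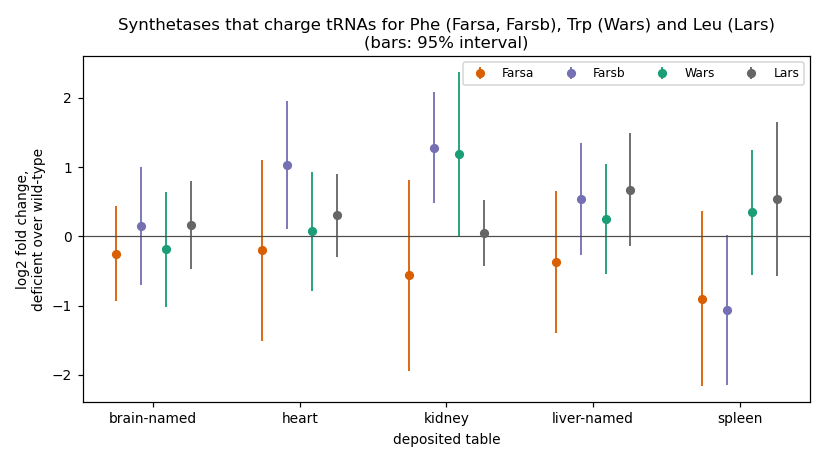
Log2 fold change with 95% interval of Farsa, Farsb, Wars and Lars in the 5 deposited tables. Farsa lies below 0 in all 5, Farsb is highest in kidney at 1.28 and lowest in spleen at -1.06, and most intervals include 0.

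Differences among the tables were tested for all genes by a z from the deposited standard errors, a test added after the data were seen. Of 380 such differences for synthetases over 10 pairs, 0 passed an adjusted p of 0.05, and 10 had an unadjusted p under 0.05, where between 5.13% and 12.1% of all genes had one in a pair. The error of a difference treats its tables as independent, although 6 of the 10 pairs come from the same mice. Of all genes, 0.452%, 1.3%, 0% and 0.0534% passed for the brain-named table against heart, kidney, liver-named and spleen, 0.165% for heart against liver-named and 0.791% for kidney against liver-named. The strongest of the synthetase differences was Farsb, 2.34 ± 0.69 higher in kidney than in spleen (adjusted p = 0.0993 over the 18486 genes of both DESeq2 tables, of which 0.411% passed), and these tables come from different mice. Farsb in heart was 2.09 ± 0.73 higher than in spleen (adjusted p = 0.356 from the same DESeq2 estimates, where 0.117% passed). For Wars2 the liver-named value was below the spleen value by 2.23 ± 0.84 (adjusted p = 0.680, where 0.0799% passed), and for Eprs the heart value was 0.95 ± 0.39 above that of kidney (adjusted p = 0.343, where 0.638% passed), again from the DESeq2 estimates.

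In heart most synthetases had positive values. There 33 of 38 were above 0, with a median log2 fold change of 0.35, while 51.1% of all tested genes were positive with a median of 0.01. Mitochondrial enzymes had a median of 0.47 with 16 of 17 positive, and cytosolic enzymes a median of 0.30 with 17 of 21 positive. In the same table hepatocyte genes were at a median of -0.69 (0 of 11 tested positive, 0.128% of the sum of means), pancreatic acinar genes at -0.51 (0 of 17, 0.0399%) and adipose genes at -1.85 (0 of 4). B and plasma cell genes were at -2.28 (2 of 5) and proximal tubule genes at -0.34 (2 of 8). Neuron genes were at -0.13 (2 of 10) and cardiomyocyte genes at -0.07 (4 of 8). Erythroid genes were at 0.52 (4 of 4) and macrophage genes at 0.63 (4 of 6). Lower at an unadjusted p under 0.05 were 3 hepatocyte, 3 adipose, 3 B and plasma cell, 1 acinar and 1 neuron gene (background 5.87%). Higher at that p were 3 macrophage genes and 1 erythroid gene (background 4.76%). Past 5% were 1 acinar and 1 B and plasma cell gene, both lower (background 1.19% in either direction). What part these cells have in the synthetase values was not tested. In such bulk tissue fewer cells of a type, less RNA per cell and fewer uncapped ends per transcript cannot be told apart.

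Fewer were positive in the other tables. Spleen had 29 of 38 positive with a median of 0.22, against 49.5% and -0.01 for all tested genes, with acinar genes at -0.30 (2 of 17 positive). The liver-named table had 26 of 38 positive and a median of 0.17, against 47.1% and -0.05. Kidney had 24 of 38 positive and a median of 0.15, against 49.1% and -0.01, with 3 tested adrenal genes all negative at a median of -2.76. The brain-named table had 16 of 38 positive and a median of -0.06, against 53.3% and 0.04, while acinar genes there stood at 4.12 (14 of 14 positive, 0.383% of the sum). In that table hepatocyte genes were at 0.50 (11 of 12), macrophage genes at 0.45 (6 of 6) and erythroid genes at 0.74 (4 of 4), against adrenal genes at -0.63 (0 of 4) and adipose genes at -0.96 (0 of 3). The part of these cells in the synthetase values was not tested. Complex members and free cytosolic enzymes had medians of -0.02 and -0.06, 0.34 and 0.24, 0.05 and 0.21, 0.25 and 0.25, and 0.29 and 0.19, table by table. The median of Farsa, Farsb, Wars and Lars together was -0.02, 0.19, 0.62, 0.39 and -0.28. By catalytic fold, 17 of the 18 class I enzymes and 11 of the 19 class II enzymes were positive in spleen, 16 and 16 in heart, 14 and 10 in kidney, 13 and 12 in the liver-named, and 6 and 9 in the brain-named one, with Eprs, which carries both folds, left out.

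**Figure D4:**
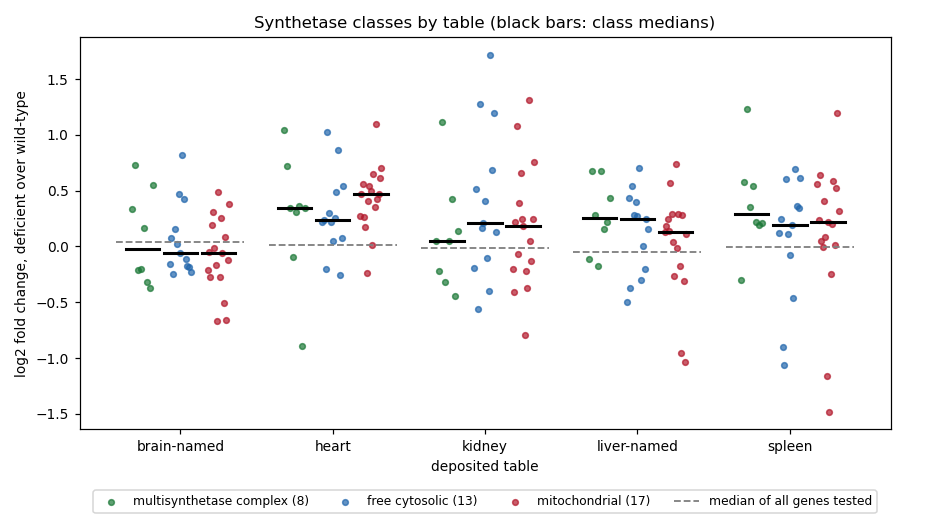
Log2 fold change of each synthetase gene by class and table, with black bars at class medians and dashed lines at the median of all tested genes. In heart all 3 class medians (0.34, 0.24 and 0.47) lie above the dashed line at 0.01, and in the brain-named table all 3 lie below it.

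Partners of the synthetases gave no call either. The scaffold genes Aimp1, Aimp2 and Eef1e1 had 0 of 3 members past 5% in every table, with Aimp1 from -0.60 ± 0.42 in the liver-named table to 1.04 ± 0.54 (adjusted p = 0.470) in the brain-named table of the authors. Of the genes that make mitochondrial glutaminyl-tRNA by amidation or formylate the initiator tRNA, Gatb is listed at 0 in all 5 tables. Gatc was at 1.06 ± 0.39 in the authors' deposited liver-named table (adjusted p = 0.252) and Mtfmt at -0.79 ± 0.33 in the kidney one (adjusted p = 0.245), and Qrsl1 had no p in spleen. Among proofreading genes Aarsd1 is listed at 0 throughout, and Dtd2, a D-aminoacyl-tRNA deacylase, was at 0.75 ± 0.35 in the authors' deposited brain-named table (adjusted p = 0.377). Of the factors that carry charged tRNA to the ribosome, Eef1a2, the form of muscle and neurons, was at 0.93 ± 0.36 in the authors' deposited heart table (adjusted p = 0.233), and Tufm, the mitochondrial factor, at -0.69 ± 0.35 in the liver-named one (adjusted p = 0.482).

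Cytosolic synthetases are among the known targets of ATF4, the transcription factor of amino acid stress, so 24 other genes linked to it were set beside them. Of 24, 23, 20, 23 and 22 tested in the 5 tables, 2, 1, 1, 0 and 1 passed 5% (background 0.414%, 1.19%, 2.07%, 0.203% and 0.217%), the one in spleen lower and the others higher in deficient mice. In the authors' deposited tables Fgf21, a hormone, rose in the brain-named (2.26 ± 0.38) and fell in the spleen table (-4.05 ± 1.01). The stress gene Nupr1 rose in the brain-named table (2.40 ± 0.53), the amino acid transporter Slc7a5 rose in heart (1.05 ± 0.28) and Stc2, a secreted glycoprotein, rose in the kidney one of the authors' deposited tables (2.28 ± 0.48). Pancreatic acinar genes had a median of 4.12 in the brain-named table, and of -0.30 in spleen, where they made up 15.6% of the sum. The part of acinar cells in the Fgf21 and Nupr1 values was not tested. Chac1, a glutathione-degrading enzyme, was at 1.90 ± 0.61 in the authors' deposited heart table (adjusted p = 0.102). Nupr1 was at -0.77 ± 0.33 in heart, -0.86 ± 0.38 in kidney and 1.74 ± 0.52 in the liver-named one of the authors' deposited tables, each with an unadjusted p under 0.05 and none passing. At that p too were Sesn2 and Phgdh in kidney (0.78 ± 0.35 and 0.93 ± 0.36), Cebpb in the liver-named table (-1.62 ± 0.79), and Atf3 and Atf5 in spleen (2.15 ± 0.98 and -1.31 ± 0.58), in the authors' deposited tables. Atf4 itself was at 0.20 ± 0.38, 0.52 ± 0.30, 0.08 ± 0.21, 0.59 ± 0.36 and 0.37 ± 0.61 in the authors' deposited tables, with no call. Asns, asparagine synthetase, was at 0.40 ± 0.67, 0.00 ± 0.52, 0.88 ± 0.97, 0.39 ± 0.35 and -0.07 ± 0.65 in the authors' deposited tables. The list medians were -0.11, -0.10, 0.04, 0.27 and -0.16. Of the 5 synthetases with TGATGNAA near the start, Iars in kidney alone had an unadjusted p under 0.05, and Aars, Gars, Tars and Yars had none.

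Some values may depend on how reads were assigned, which was not tested. By RefSeq gene spans, 8 of the 38 genes overlap another protein-coding gene, among them Hars and Hars2 with each other, Mars1 with Ddit3, Farsb with Sgpp2 and Aars with Ddx19b. The labels do not say whether strand was used in counting, so tags of such neighbours cannot be told apart here. Sgpp2, a sphingosine phosphate phosphatase, was at 0.27 ± 0.94 in kidney and -0.55 ± 0.63 in heart in the authors' deposited tables, where Farsb was at 1.28 and 1.03. Wdr25, which overlaps Wars, was at 0.91 ± 0.87 in the authors' deposited kidney table, where Wars was at 1.19. Ears2 and Eprs overlap no other gene in RefSeq.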

How the data were processed

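Per the labels, an adapter was joined to uncapped poly(A) RNA, taken from 5 µg of total RNA, and short tags were read. The submitters' processing notes name GRCm39, featureCounts, Subread 2.0.3 and DESeq2, and the model is not given in the sources used here. The deposited mean is a signal in normalized counts over all libraries of an organ. Fold changes and standard errors were deposited as log2 values, with the Wald statistic, a score that is their quotient, and the authors' p-value before and after adjustment. The 1 row per table without a gene name was left out. A member counted in the totals, and a promoter stretch, are not reported here.

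No test per gene was run anew: a false discovery rate of 5% was applied to the authors' DESeq2 adjusted p over all tested genes. Intervals are the fold change with its standard error at 95%. Class counts and medians carry no test. Members, lists and the rule for named genes (every synthetase past 5% or at an unadjusted p under 0.05, the highest and lowest per table, the enzymes of Ftsj1 substrates, and companion genes past either limit) were chosen with earlier results of these data known; Atf4, Asns, Aimp1, overlapping neighbours and the ranges of other members are given beyond it. Alternatives were limits of 1% and 10%, adjusting across all genes that have a p-value, requiring a mean of 20, a rescaled statistic, and other centring, weights and classes for medians. Computation used Python 3.11.15 with pandas 2.3.3, matplotlib 3.10.9, scipy 1.17.1 and numpy 2.4.6.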

Additional observations from a re-analysis of the deposited data

How the results depend on the processing

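The count of synthetase genes passing was 0 in every table by the authors' DESeq2 adjusted p, and stayed 0 at a false discovery rate of 1%, when p was adjusted across all genes that have one, with genes of mean at least 20 alone and with the statistic rescaled. At a false discovery rate of 10% the kidney count was 2 (Ears2 and Farsb) in place of 0, where 3.09% of tested genes passed, and the other 4 tables stayed at 0. Of 40 alternative values of class medians, 1 had another sign: the cytosolic median of -0.06 in the brain-named table became 0.08 as a mean weighted by 1 over the squared standard error. The largest move of a median was 0.14. The median of all genes of mean at least 20 lay between -0.04 and 0.04. The difference of Farsb between kidney and spleen had an adjusted p = 0.103 from DESeq2 estimates with z divided by its robust spread. The planned tests of differences for called synthetases were not run since none was called. No paired analysis was possible because the tables hold no values per library, and for the same reason no library could be left out.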
